A study of Mus musculus with 15 samples.

Results

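The genes described here encode 8 hormones and regulators that the liver secretes into the blood: Fgf21, Gdf15, Angptl4, Angptl8, Inhbe, Fst, Ahsg and Fetub. They were taken by gene symbol from a table of 18510 rows, and all 8 were found. Their transcripts were quantified from liver RNA-seq libraries of 15 wild-type mice, 5 on a control diet (Ctrl), 5 on an alcohol diet (Alc), and 5 on an alcohol diet with UA (Alc UA), whose full name the labels leave out. The sources used here do not state age, sex, strain, alcohol dose or time of day of collection. Expression is in FPKM, fragment counts scaled to transcript length and library size, so levels can be compared between genes.

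Proteins released by the liver that act on other organs are called hepatokines. FGF21 is a hormone made by hepatocytes in fasting, on low protein and on alcohol, and it acts through FGF receptors with the co-receptor beta-klotho on fat and brain. GDF15 is made by stressed cells of many kinds and acts on a receptor in the hindbrain that lowers food intake. ANGPTL4 and ANGPTL8 restrain lipoprotein lipase, the enzyme that frees fatty acids from circulating triglyceride, and ANGPTL8 is a signal of the fed state. The gene Inhbe encodes the subunit of activin E, a ligand of the TGF-beta family, and follistatin, from Fst, binds activins and keeps them from their receptors. Ahsg and Fetub encode the plasma proteins fetuin-A and fetuin-B of the cystatin family. Fetuin-A binds calcium phosphate and can inhibit the insulin receptor, and fetuin-B inhibits metalloproteases.

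Library sums of FPKM lay between 551153 and 668832, between 10119 and 11471 genes reached 1 FPKM, and read depth is unknown. The 7 hepatocyte markers summed to between 30005 and 60310 FPKM in a library. Control libraries lay at -48.4 to -6.04 on the first principal component and the alcohol libraries at 2.47 to 28.4, with Ctrl 5 the control nearest to the alcohol groups. Fold changes and ratios were also computed without Ctrl 1 and Ctrl 5, the controls at the ends of that range, and those values are given for Fgf21, Fst and Gdf15 and wherever they changed the call of a described gene or ratio. In all, 10959 genes were tested and all 8 hepatokine genes were among them. Changes are given as limma estimates on the log2(FPKM + 1) scale with their SE, a scale that understates changes of weakly expressed genes. Over all tested genes the median change was -0.12 in Alc against Ctrl and -0.16 in Alc UA against Ctrl. Relative to these medians, Fgf21 stood at -1.85 and Fst at -1.31 in Alc against Ctrl, and Angptl8 stood at -1.54 in Alc UA against Ctrl.

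Fgf21 and Fst fell on the alcohol diet, while the other 6 hepatokine genes did not pass the test in Alc against Ctrl (limma, adjusted p from 0.056 to 0.63). Of the 8, 0 rose and 2 fell. Among all tested genes 33.3% were called in this comparison, 10.6% higher and 22.8% lower, so 2 of 8 is close to the share of all genes. The median log2 fold change of the 8 was -0.22. Scaling moves this balance: after quantile normalization 2049 genes were higher and 2024 lower, against 1157 and 2497 as deposited. In Alc UA against Ctrl, 0 rose and 1 fell, Angptl8, where 42.6% of all genes were called, 10.5% higher and 32.1% lower. The median of the 8 was -0.31. After quantile normalization 2420 genes were higher and 2430 lower in this comparison, against 1152 and 3521. Comparing Alc UA with Alc, 0 of the 8 passed (limma adjusted p from 0.82 to 0.95), and 0 had an unadjusted p under 0.05. In that comparison 0.00912% of all genes were called, which is 1 gene, Mup5, whose reads may be shared with other Mup genes, and 664 genes had an unadjusted p under 0.05. The comparisons share groups, so their values are not independent.

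**Figure D1:**
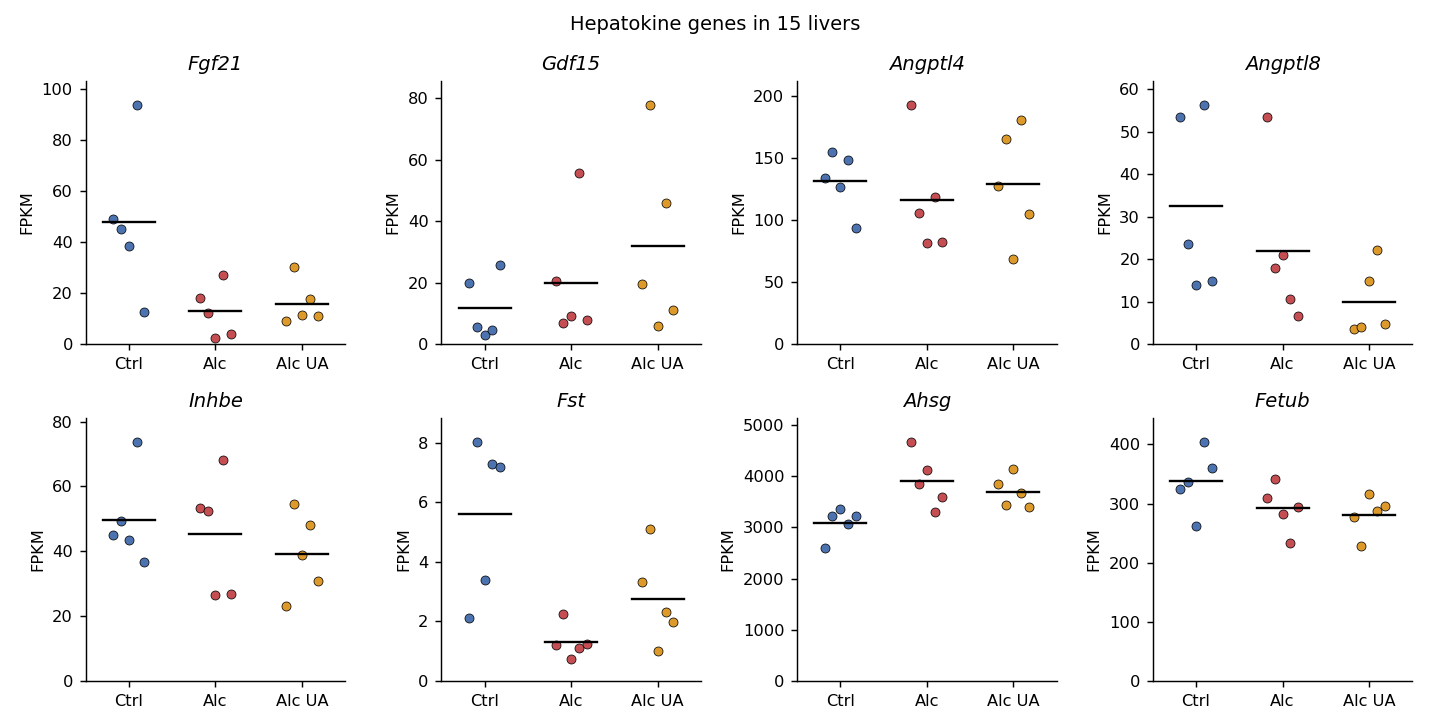
FPKM of the 8 hepatokine genes (vertical axes, from 0, a scale for each gene) in the livers of the Ctrl, Alc and Alc UA groups. Each point is 1 mouse and each bar the mean of 5. Fst and Fgf21 are low in the Alc group, and Gdf15 reaches its highest value, 77.8 FPKM, in an Alc UA mouse.

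The genes differed in level by a factor that far exceeded the differences between groups. Ahsg was the most abundant in every group, with 3092 ± 297 FPKM in Ctrl (mean ± SD, n = 5). Fetub came next at 338 ± 52.6 followed by Angptl4 at 131 ± 23.8 FPKM in Ctrl. In each group the ranges of Ahsg, Fetub, Angptl4 and Inhbe did not overlap, in that order. Below Inhbe, at 49.7 ± 14.3 FPKM in Ctrl, neighbours in the order overlapped: Fgf21 at 47.9 ± 29.4, Angptl8 at 32.4 ± 20.8, Gdf15 at 11.8 ± 10.3 and Fst at 5.6 ± 2.66 FPKM. In Alc the lower part of the order was Inhbe, Angptl8, Gdf15, Fgf21 and Fst, and here Fgf21 and Fst did not overlap. In Alc UA it was Inhbe, Gdf15, Fgf21, Angptl8 and Fst, all overlapping with their neighbour.

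Fgf21, the hormone gene, was 3.72-fold lower in Alc than in Ctrl. It stood at 49.2, 45.3, 38.5, 93.9 and 12.5 FPKM in Ctrl 1 to 5, and at 18.3, 12.3, 2.58, 27.2 and 3.95 in Alc 1 to 5. The ranges overlapped only through Ctrl 5, whose value lay below Alc 1 and Alc 4, and the other controls lay above every Alc mouse. The means were 12.9 ± 10.3 in Alc and 47.9 ± 29.4 in Ctrl (SD, n = 5; log2 fold change -1.97 ± 0.56, limma adjusted p = 0.015). Without Ctrl 1 and Ctrl 5 the fold change was -2.41 (adjusted p = 0.0076). With single mice left out it ran from -2.37 to -1.58, and the highest limma adjusted p over all alternatives was 0.047. In Alc UA 1 to 5 Fgf21 was 9.17, 30.3, 11.4, 17.6 and 11 FPKM. Every Alc UA mouse lay below the controls other than Ctrl 5. The log2 fold change against Ctrl was -1.41 ± 0.56 and missed the threshold (limma adjusted p = 0.054). The threshold was passed when Ctrl 5, Alc 3, Alc 4 or Alc UA 2 was left out (adjusted p between 0.011 and 0.040), and without Ctrl 1 and Ctrl 5 (-1.85, adjusted p = 0.022). Against Alc the difference was 0.56 ± 0.56, with a 95% interval of -0.64 to 1.75 on the log2 scale.

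Transcripts of the FGF21 receptor complex were also measured. Of 10 genes listed for FGF21 and GDF15 reception and processing, 6 were tested, and in Alc against Ctrl, 2 rose, 1 fell and 3 did not pass. Klb, which encodes beta-klotho, rose from 5.76 ± 1.55 to 9.18 ± 2.08 FPKM (log2 fold change 0.60 ± 0.18, limma adjusted p = 0.020). Klb lost the call without Ctrl 1, Ctrl 4 or Alc 1 (adjusted p = 0.051 to 0.055). Fgfr4, the main FGF receptor of hepatocytes, fell from 12.2 ± 1.40 to 8.78 ± 1.23 FPKM (-0.44 ± 0.14, adjusted p = 0.023). Fgfr4 lost the call without Ctrl 1, without Alc 5 and without both Ctrl 1 and Ctrl 5 (adjusted p = 0.058 to 0.078), and under the 3 other scalings (adjusted p = 0.058 to 0.12). Fgf1, a growth factor gene with no secretion signal in its protein, rose by 0.67 ± 0.20 (adjusted p = 0.018). Between Alc UA and Ctrl, 2 of these 6 rose and 2 fell, and in Alc UA against Alc, 0 passed.

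Gdf15, the stress hormone gene, varied more between mice of the same diet than between diets. It stood at 20.1, 5.72, 2.97, 4.66 and 25.6 FPKM in Ctrl 1 to 5, at 20.6, 6.89, 9.02, 55.5 and 8.01 in Alc 1 to 5, and at 19.5, 77.8, 6.04, 46.0 and 11 in Alc UA 1 to 5. The highest value was 8.63 times the lowest in Ctrl, 8.06 times in Alc and 12.9 times in Alc UA, and all 3 groups overlapped. The log2 fold change was 0.67 ± 0.71 in Alc against Ctrl and 1.25 ± 0.71 in Alc UA against Ctrl (limma adjusted p = 0.48 and 0.16), with 95% intervals of -0.83 to 2.17 and -0.25 to 2.75. Ctrl 1 and Ctrl 5 held the 2 highest control values of Gdf15. Without them the fold changes were 1.53 (adjusted p = 0.12) and 2.11 (adjusted p = 0.032). Single mice moved the values of Gdf15 the other way as well: the first was 0.20 without Alc 4 and 0.35 without Ctrl 3, and the second was 0.81 without Alc UA 2 (limma adjusted p = 0.84, 0.74 and 0.37).

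Gdf15 is known to be induced by p53, and other targets of p53 were listed beside it. Of 11 p53 targets tested, 0 rose and 4 fell in Alc against Ctrl, with a median log2 fold change of -0.11, near that of all genes. Cdkn1a, which encodes the cell cycle inhibitor p21, was 3.97 ± 3.88 FPKM in Alc against 26.3 ± 8.47 in Ctrl (-2.68 ± 0.46, limma adjusted p = 8.3e-04). Plk2, a kinase gene, fell by 0.95 ± 0.19 (adjusted p = 0.0021). In Alc UA against Ctrl, 0 rose and 4 fell as well, or 3 and 4 under median-of-ratios scaling.

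**Figure D2:**
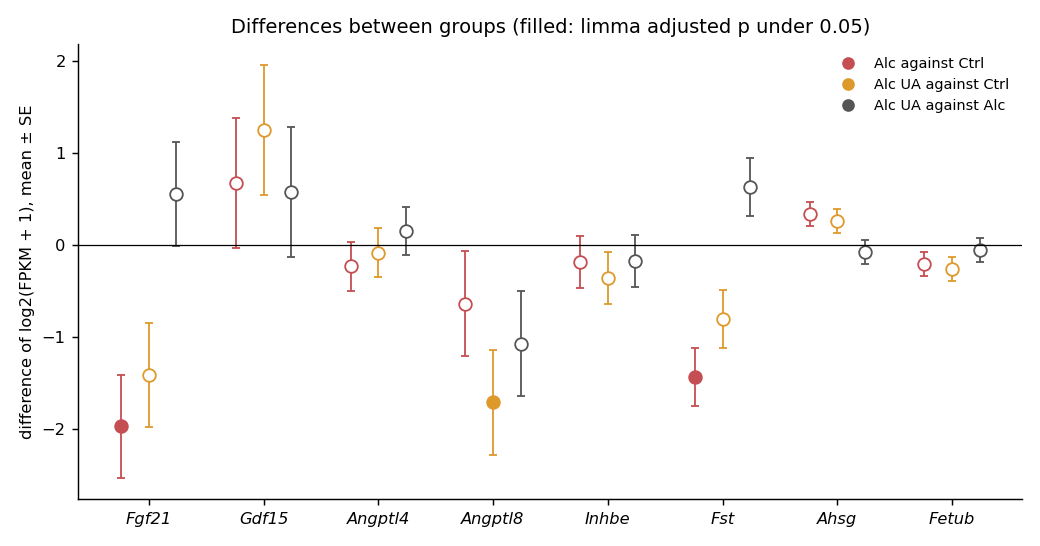
Differences of mean log2(FPKM + 1) between groups for each hepatokine gene (vertical axis), with SE from limma, n = 5 per group. Filled points passed the test at adjusted p under 0.05: Fgf21 and Fst in Alc against Ctrl, and Angptl8 in Alc UA against Ctrl.

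Angptl8, the lipase regulator of the fed state, was lower in Alc UA than in Ctrl. Its values were 53.4, 23.6, 13.9, 56.2 and 14.8 FPKM in Ctrl 1 to 5 and 3.65, 4.02, 14.8, 22.2 and 4.67 in Alc UA 1 to 5. Alc UA 1, 2 and 5 lay below every control, and Alc UA 3 and 4 lay among them. The means were 9.87 ± 8.30 and 32.4 ± 20.8 (SD, n = 5; log2 fold change -1.71 ± 0.57, limma adjusted p = 0.025). The call ended when any of Ctrl 1, Ctrl 4, Alc UA 1, Alc UA 2 and Alc UA 5 was left out (adjusted p between 0.061 and 0.068) and without both Ctrl 1 and Ctrl 5 (adjusted p = 0.052). In Alc 1 to 5 Angptl8 stood at 53.4, 18, 21.0, 10.7 and 6.53 FPKM. Alc 1 was close to the 2 highest controls, and the Alc group overlapped with both others. The difference was -0.64 ± 0.57 in Alc against Ctrl and -1.07 ± 0.57 in Alc UA against Alc (limma adjusted p = 0.41 and 0.82), with 95% intervals of -1.85 to 0.57 and -2.28 to 0.14.

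Angptl4, the lipase inhibitor gene, ranged from 93.8 to 154 FPKM in Ctrl, from 81.4 to 192 in Alc and from 68.5 to 180 in Alc UA, with full overlap. Its means were 131 ± 23.8, 116 ± 45.6 and 129 ± 45.2 FPKM. The log2 fold change was -0.23 ± 0.26 in Alc against Ctrl, with a 95% interval of -0.79 to 0.32 (limma adjusted p = 0.51). Comparing Alc UA with Ctrl, it was -0.08 ± 0.26, and its sign turned under other scalings. Within a library, the log2 ratio of Angptl4 to Angptl8 averaged 2.21 ± 0.808 in Ctrl, 2.61 ± 0.776 in Alc and 3.83 ± 1.24 in Alc UA (SD, n = 5). The ratio ran from 1.31 to 3.09 in Ctrl and from 2.13 to 5.05 in Alc UA, and these ranges overlapped. The largest difference, Alc UA against Ctrl, was 1.63 (exact two-sided permutation test, p = 0.063, adjusted over 6 ratio tests 0.13). The smallest p this design allows is 0.0079.

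The other genes of the lipoprotein lipase system gave 1 rise and 3 falls among 12 tested in Alc against Ctrl, a balance that turned to 3 rises and 1 fall under median-of-ratios scaling. Gpihbp1, which anchors the lipase on capillary endothelium, fell from 35.2 ± 13.8 to 13.3 ± 3.88 FPKM (log2 fold change -1.29 ± 0.24, limma adjusted p = 0.0014). It moved with the markers of sinusoidal endothelial cells, which summed to between 103 and 295 FPKM in Ctrl libraries, 46.0 and 99.0 in Alc and 48.7 and 63.6 in Alc UA. Of these 8 markers 0 rose and 7 fell in Alc against Ctrl, none was at 0 in all libraries, and their part in the result was not tested. In a bulk sample, fewer cells of a type and less RNA per cell cannot be told apart. Pcsk6, a protease that can cleave ANGPTL proteins, rose by 0.71 ± 0.16 (adjusted p = 0.0044). Lpl itself stood at 10.4 ± 3.29 against 8.93 ± 4.81 FPKM (0.25 ± 0.28, adjusted p = 0.50). Between Alc UA and Ctrl, 1 of the 12 rose and 4 fell.

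Fst, the follistatin gene, showed the smallest adjusted p of the 8 in Alc against Ctrl. In Ctrl 1 to 5 it was 2.11, 8.03, 3.40, 7.27 and 7.19 FPKM, and in Alc 1 to 5 it was 1.22, 2.23, 0.73, 1.09 and 1.25. The groups overlapped only in that Alc 2 exceeded Ctrl 1. The means were 1.3 ± 0.557 in Alc and 5.6 ± 2.66 in Ctrl, a 4.29-fold difference of means (log2 fold change -1.43 ± 0.31, limma adjusted p = 0.0036). Without Ctrl 1 and Ctrl 5 the fold change was -1.61 (adjusted p = 0.0022). In Alc UA 1 to 5 the values were 3.31, 5.11, 1.01, 2.31 and 1.97 FPKM. Their mean of 2.74 ± 1.56 lay between those of the other groups, and their range overlapped with both. The difference was -0.80 ± 0.31 against Ctrl and 0.63 ± 0.31 against Alc (limma adjusted p = 0.05001 and 0.82). The first passed without Ctrl 1, Ctrl 3 or Alc UA 2 (adjusted p = 0.012 to 0.041) and without Ctrl 1 and Ctrl 5 (adjusted p = 0.023). The 95% interval of the second ran from -0.03 to 1.3.

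Inhbe, which encodes the activin E subunit, did not pass the test in any comparison. It stood at 45.1, 49.4, 43.6, 73.8 and 36.6 FPKM in Ctrl 1 to 5, at 53.2, 52.3, 26.6, 68.3 and 26.9 in Alc 1 to 5, and at 23.2, 54.5, 39.0, 48.1 and 30.9 in Alc UA 1 to 5. All 3 groups overlapped. The log2 fold change was -0.18 ± 0.28 in Alc against Ctrl, with a 95% interval of -0.78 to 0.41, and -0.36 ± 0.28 in Alc UA against Ctrl (limma adjusted p = 0.63 and 0.31). Alc UA differed from Alc by -0.17 ± 0.28, with a 95% interval of -0.77 to 0.42.

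Of the 16 other genes listed for the activin and follistatin system, 12 were tested, and 3 rose and 2 fell in Alc against Ctrl. Inhbc, which encodes the related activin C subunit and, like Inhbe, is made mainly by hepatocytes, fell from 41.2 ± 9.15 to 16.7 ± 6.70 FPKM (log2 fold change -1.30 ± 0.21, limma adjusted p = 5.9e-04). It was 33.0, 44.4, 36.0, 36.9 and 55.8 FPKM in Ctrl 1 to 5 and 13.1, 16.8, 9.53, 27.4 and 16.8 in Alc 1 to 5, with no overlap between the groups. In Alc UA it was 19.2 ± 3.01 FPKM (-1.05 ± 0.21 against Ctrl, adjusted p = 0.0015). Acvr1b, an activin receptor gene, rose by 0.47 ± 0.11 in Alc against Ctrl (adjusted p = 0.0046). Smad7, an inhibitor of TGF-beta signalling, fell by 0.75 ± 0.23 (adjusted p = 0.022) and lost the call without Ctrl 3 or Alc 1 (adjusted p = 0.054 to 0.057). In Alc UA against Ctrl, 1 of the 12 rose and 3 fell, which turned to 4 and 2 under median-of-ratios scaling and quantile normalization.

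Fgf21 and Inhbe varied together between mice on the same diet. Each gene was expressed as a deviation from its group mean of log2(FPKM + 1), and the 28 pairs of hepatokine genes were compared over the 15 mice. For Fgf21 and Inhbe Pearson's r was 0.91 and Spearman's rho also 0.91 (p = 0.00001 for both, the smallest that 100000 permutations within groups can give; 2.8e-04 adjusted over the 28 pairs). Without Ctrl 5 and Alc 3, the 2 mice farthest from the median of Fgf21, r was 0.94, and with each mouse left out in turn it ran from 0.89 to 0.94. Alc 4, Ctrl 4 and Alc UA 2 had the highest Fgf21 deviations in their groups, 1.42, 1.21 and 1.02, and also the highest Inhbe deviations, 0.67, 0.60 and 0.53. Alc 3 and Ctrl 5 had the lowest of both in their groups. Alc UA 1 was lowest for both in the Alc UA group.

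**Figure D3:**
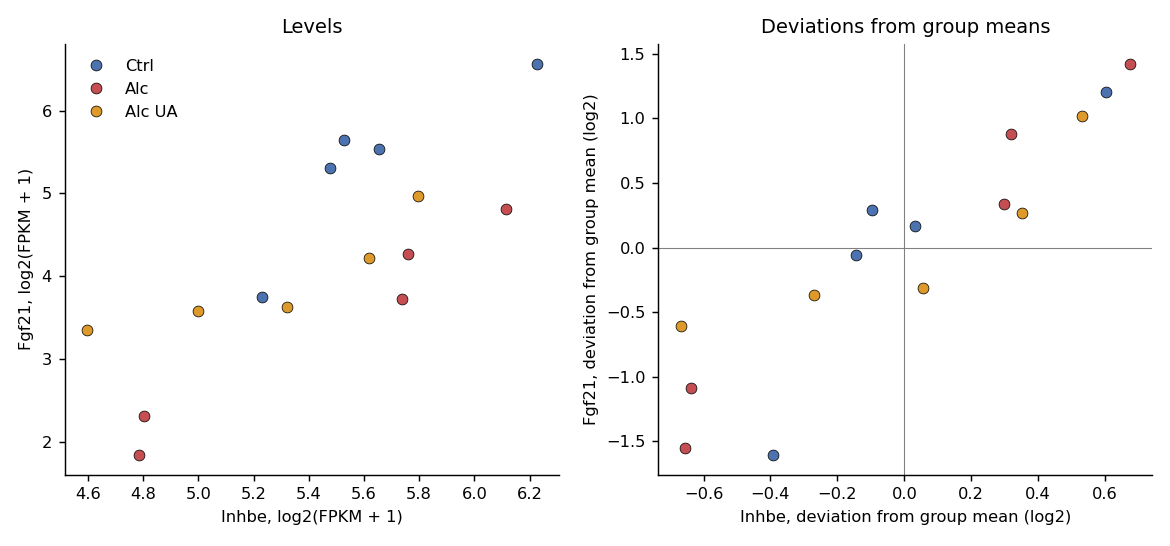
Fgf21 (vertical) against Inhbe (horizontal), as log2(FPKM + 1) on the left and as deviations from the group means on the right, 1 point per mouse. On the right the 15 mice of all groups lie along 1 rising line (r = 0.91), while on the left 4 of the Ctrl mice have more Fgf21 at the same Inhbe.

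Between diets the ratio of these 2 genes was compared within libraries. The log2 ratio of Fgf21 to Inhbe in a library was 0.12, -0.12, -0.17, 0.34 and -1.48 in Ctrl 1 to 5 and -1.49, -2.01, -2.95, -1.30 and -2.50 in Alc 1 to 5. Ctrl 5 alone among the controls lay within the Alc range. The ratio averaged -0.26 ± 0.71 in Ctrl, -2.05 ± 0.686 in Alc and -1.32 ± 0.314 in Alc UA (SD, n = 5). This ratio was chosen after its values were seen, so its p-values are a description and not a test. They were adjusted apart from those of the other ratios. The difference in the ratio was -1.79 in Alc against Ctrl (exact two-sided permutation test, p = 0.016, adjusted over its 3 comparisons 0.048). It reflects the fall of Fgf21, which moved by -1.97 in that comparison. Inhbe moved by -0.18, the same way, and so did not add to the difference. The adjusted p rose above 0.05 when Ctrl 4 or any of Alc 2, 3 and 5 was left out (between 0.060 and 0.071) and with a pseudocount of 0.1 (0.060). Comparing Alc UA with Ctrl, the difference was -1.05 (exact permutation p = 0.040, adjusted 0.060). Its adjusted p was below 0.05 without Ctrl 5 (exact permutation test, 0.012) and without both Ctrl 1 and Ctrl 5 (-1.33, adjusted p = 0.027). For Alc UA against Alc the difference was 0.73 (exact permutation p = 0.071, adjusted 0.071). There the adjusted permutation p was 0.048 without Alc 1 and 0.024 without Alc 4.

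**Figure D4:**
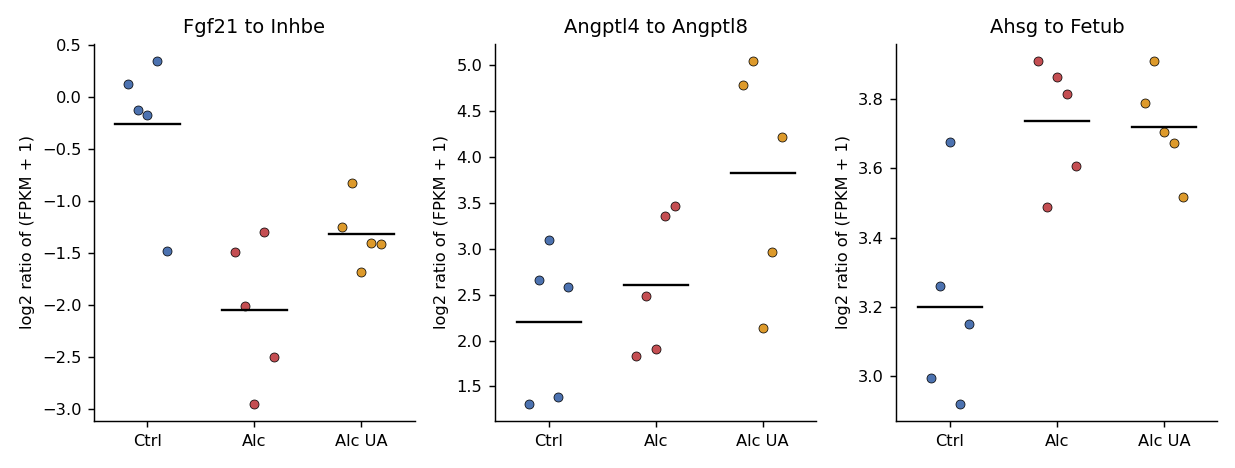
Log2 ratios within each library (vertical axes, differences of log2(FPKM + 1)) for Fgf21 to Inhbe, Angptl4 to Angptl8 and Ahsg to Fetub, 1 point per mouse with the mean of 5 as a bar. For Fgf21 to Inhbe 4 of 5 Ctrl mice lie above all other mice, and Ctrl 5 at -1.48 lies among them.

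No other pair passed after adjustment. Fgf21 and Angptl4 came next, with r = 0.69 (permutation p = 0.0046, adjusted 0.065) and rho = 0.70 (permutation p = 0.0070, adjusted 0.099), and r was 0.60 without Ctrl 5 and Alc 3. Angptl4 and Inhbe followed, with r = 0.57 (permutation p = 0.057, adjusted 0.53) and rho = 0.60 (permutation p = 0.037, adjusted 0.35). For that pair r was 0.81 without Alc 1 and Alc UA 3. The lowest r, between Gdf15 and Ahsg, was -0.43 (permutation p = 0.14, adjusted 0.57; rho -0.36, permutation p = 0.22, adjusted 0.58), and it was -0.16 without Alc 4 and Alc UA 2. Of the 28 pairs, 19 had a positive r. Fst, which fell on alcohol as Fgf21 did, had r = 0.18 with Fgf21 (permutation p = 0.52, adjusted 0.69; rho 0.22, permutation p = 0.45, adjusted 0.70), and r was 0.30 without Ctrl 5 and Alc 3.

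**Figure D5:**
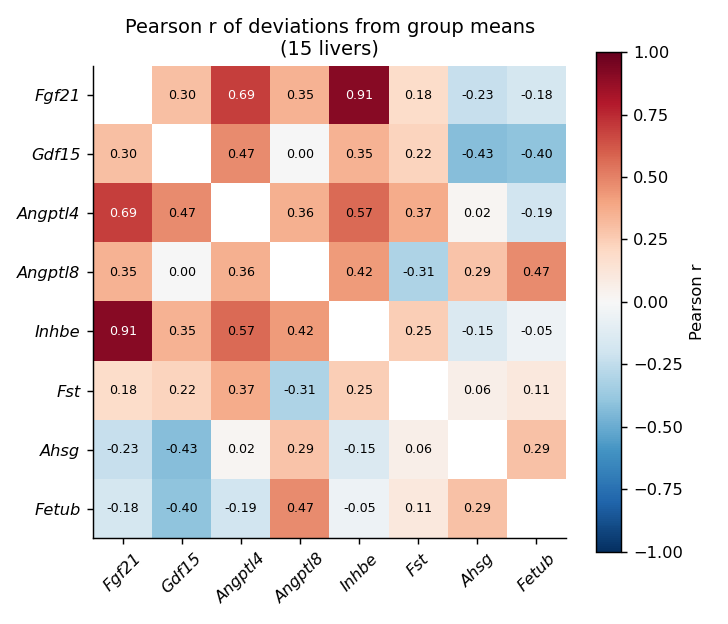
Pearson r between hepatokine genes over 15 mice, from deviations of log2(FPKM + 1) from group means. Colour and number give r, the diagonal is left blank, and the pair Fgf21 and Inhbe stands at 0.91.

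Because Fgf21 and Inhbe varied together, the RefSeq sequences upstream of their starts are shown. RefSeq promoters of build GRCm38.p6 (250 bases before to 50 after a gene start) matched 6 of the 8 genes by symbol. These genes had 8 promoters in all, while Angptl4 and Fst had none and were not searched. The sources used here do not name the build behind the FPKM table. The motif TGATGNAA, the core that ATF4 binds in amino acid response elements, was searched on both strands. It was found in the promoters of Fgf21, Inhbe and Angptl8, and in 2.42% of the 11241 promoters of tested genes and 3.97% of all 32851 promoters. It began 139 bases before the start in Fgf21, 181 in Inhbe and 130 in Angptl8. The match is TTGCATCA, its reverse complement, in Fgf21 and Inhbe, and TGATGCAA in Angptl8. The 250 bases before each start follow, 5′ to 3′ on the strand of the gene, with the match in capitals.
Fgf21 (chr7:45615491-45615740, minus strand): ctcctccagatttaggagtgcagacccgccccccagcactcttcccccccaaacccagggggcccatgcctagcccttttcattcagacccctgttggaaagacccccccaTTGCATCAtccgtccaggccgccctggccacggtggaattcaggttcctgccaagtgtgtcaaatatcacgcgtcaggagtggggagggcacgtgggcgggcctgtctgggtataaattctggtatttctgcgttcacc
Inhbe (chr10:127351849-127352098, minus strand): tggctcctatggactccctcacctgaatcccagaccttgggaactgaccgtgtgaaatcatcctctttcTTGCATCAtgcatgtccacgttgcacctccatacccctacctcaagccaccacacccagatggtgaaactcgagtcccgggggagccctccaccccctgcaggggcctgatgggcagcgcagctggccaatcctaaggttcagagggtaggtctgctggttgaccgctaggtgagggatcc
Angptl8 (chr9:21835260-21835509, plus strand): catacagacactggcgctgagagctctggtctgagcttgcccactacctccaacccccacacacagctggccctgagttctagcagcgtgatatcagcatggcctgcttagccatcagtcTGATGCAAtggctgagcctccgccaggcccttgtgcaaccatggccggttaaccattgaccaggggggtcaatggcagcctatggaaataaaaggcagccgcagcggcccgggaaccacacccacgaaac

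The motif is a match of letters and not a measured binding site, and in these promoters no match overlapped with that of another motif searched. Angptl8, which holds it too, had r = 0.35 with Fgf21 (permutation p = 0.24, adjusted 0.57; rho 0.43, permutation p = 0.15, adjusted 0.58), and r was 0.38 without Ctrl 5 and Alc 3. The E-box CACGTG, the letters that clock and carbohydrate-response factors bind, was found in Fgf21, where it began 50 bases before the start, and in 1 of the 2 Gdf15 promoters. It is present in 10.03% of the promoters of tested genes. The D-box TTATGNAA was found in 1 of the 2 Fetub promoters, beyond the gene start, and in 2.28% of promoters of tested genes. The direct repeat 1 element, which nuclear receptors such as PPARalpha bind, had 0 matches in the 8 promoters, none of which belongs to Angptl4. Its exact letters occurred in only 0.0356% of promoters of tested genes, so 0 matches in 8 promoters says little.

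Genes of the integrated stress response, the pathway of ATF4, went both ways. Of 17 tested, 4 rose, 4 fell and 9 did not pass in Alc against Ctrl, with a median log2 fold change of 0.0033, which is 0.12 above that of all genes. Atf4 itself fell from 72 ± 17.7 to 40.5 ± 6.65 FPKM (-0.79 ± 0.19, limma adjusted p = 0.0055), and Atf5, a related factor, fell by 1.14 ± 0.21 (adjusted p = 0.0014). Trib3, a pseudokinase gene induced by ATF4, rose from 3.59 ± 0.752 to 7.58 ± 1.89 FPKM (0.89 ± 0.17, adjusted p = 0.0018). Herpud1, an endoplasmic reticulum protein gene, rose by 1.35 ± 0.19 (adjusted p = 2.3e-04). Between Alc UA and Ctrl, 3 rose and 3 fell, and with median-of-ratios scaling 8 rose and 3 fell. The part of ATF4 in the correlation of Fgf21 with Inhbe was not tested.

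PPARalpha, the fatty acid receptor of hepatocytes, is known to induce Fgf21 and Angptl4. Of 20 genes listed for it, 1 rose, 2 fell and 17 did not pass in Alc against Ctrl. Their median was -0.16, which is 0.037 below that of all genes, and 14 of the 20 were negative. The 2 that fell were target genes, Ehhadh (log2 fold change -1.19) and Fabp1 (-1.02). Ehhadh lost the call under 8 of 28 alternatives and Fabp1 under 2. Ppara, the receptor gene, was the one that rose, from 39.9 ± 7.66 to 68.2 ± 9.59 FPKM (log2 fold change 0.77 ± 0.14, limma adjusted p = 0.0013). In Alc UA against Ctrl, 2 rose and 1 fell, and Ppara stood at 76.1 ± 10.8 FPKM (0.93 ± 0.14, adjusted p = 2.4e-04). With median-of-ratios scaling 5 rose and 1 fell there.

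Feeding-responsive lipogenic genes, a class to which Angptl8 is known to belong, were read beside it. Of 15 genes listed for the carbohydrate and insulin response, 14 were tested, and 6 rose, 0 fell and 8 did not pass in Alc against Ctrl, with a median of 0.50, or 0.62 above that of all genes. Thrsp, a nuclear regulator of lipogenesis, was 20.8, 6.53, 6.18, 7.23 and 16.1 FPKM in Ctrl 1 to 5 and 30.3, 104, 33.5, 144 and 125 in Alc 1 to 5 (log2 fold change 2.72 ± 0.49, limma adjusted p = 0.0011). The groups did not overlap. Pklr, the liver pyruvate kinase gene, rose by 1.2 ± 0.25 (adjusted p = 0.0030). Mlxipl, which encodes the carbohydrate-response factor ChREBP, was -0.26 ± 0.14 (adjusted p = 0.16). Angptl8 itself was -0.64 in Alc against Ctrl and did not pass. Comparing Alc UA with Ctrl, 3 of the 14 rose and 2 fell, with a median of -0.12, or 5 and 1 under median-of-ratios scaling. In Alc UA against Alc 13 of the 14 were negative and 0 passed, with a median of -0.36, or 0.31 below that of all genes. Angptl8 was -1.07 there and did not pass either. Among 12 genes of the fasting and FOXO1 response, a pathway known to induce Fst, 3 rose and 1 fell in Alc against Ctrl. Foxo1 rose by 0.51 ± 0.14 (adjusted p = 0.012), and Pck1, the gluconeogenic enzyme gene, fell by 0.67 ± 0.15 (adjusted p = 0.0045). Pck1 lost the call with median-of-ratios scaling (adjusted p = 0.059). Between Alc UA and Ctrl, 4 of the 12 rose and 1 fell.

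The fetuin genes were the most abundant of the 8 and had the smallest spread relative to their mean in each group. Ahsg was 2593, 3229, 3353, 3070 and 3216 FPKM in Ctrl 1 to 5, 4675, 3848, 4121, 3299 and 3598 in Alc 1 to 5, and 3846, 3441, 4138, 3673 and 3395 in Alc UA 1 to 5. Alc overlapped with Ctrl through Alc 4 alone, and every Alc UA mouse lay above every control. Groups without overlap were found for 1 of the 8 genes in Alc UA against Ctrl, Ahsg, against 20.2% of all genes, and for 0 of the 8 in Alc against Ctrl and in Alc UA against Alc, against 15.8% and 1.18%. The log2 fold change of Ahsg was 0.33 ± 0.13 in Alc against Ctrl and 0.26 ± 0.13 in Alc UA against Ctrl, and neither passed (limma adjusted p = 0.056 and 0.11, 95% intervals of 0.06 to 0.61 and -0.01 to 0.53). In Alc against Ctrl it passed under the 3 other scalings (0.47 to 0.56, adjusted p = 0.0065 to 0.032), without Alc 4 (adjusted p = 0.030), and with no mean trend, a robust prior or library weights (adjusted p = 0.023 to 0.046). In Alc UA against Ctrl it passed with median-of-ratios scaling (0.51, adjusted p = 0.026).

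Fetub ranged from 261 to 405 FPKM in Ctrl, from 233 to 342 in Alc and from 228 to 317 in Alc UA, all overlapping. Its log2 fold change was -0.20 ± 0.13 in Alc against Ctrl and -0.26 ± 0.13 in Alc UA against Ctrl (limma adjusted p = 0.24 and 0.12, 95% intervals of -0.48 to 0.08 and -0.54 to 0.02). The latter passed without Ctrl 3 (adjusted p = 0.041). The 2 fetuin genes thus differed in sign from each other. Within a library the log2 ratio of Ahsg to Fetub averaged 3.20 ± 0.297 in Ctrl, 3.74 ± 0.181 in Alc and 3.72 ± 0.145 in Alc UA (SD, n = 5), a quantity that scaling of libraries leaves nearly as it is. Ctrl 3, at 3.68, was the control that lay within the range of the alcohol groups, and the other controls lay below every mouse of both. The difference was 0.54 in Alc against Ctrl and 0.52 in Alc UA against Ctrl (exact two-sided permutation test, p = 0.024 for both, adjusted over 6 ratio tests 0.071 for both). Both passed without Ctrl 3 (adjusted p = 0.024).

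Other members of the cystatin family and partners of the fetuins gave 3 rises and 1 fall among 6 tested in Alc against Ctrl. Hrg, a cystatin-family plasma protein gene, rose from 505 ± 64.6 to 888 ± 156 FPKM (log2 fold change 0.80 ± 0.14, limma adjusted p = 7.5e-04). Insr, the insulin receptor gene, rose from 13.8 ± 2.23 to 18.5 ± 2.13 FPKM (0.41 ± 0.10, adjusted p = 0.0093). Comparing Alc UA with Ctrl, 3 rose and 1 fell as well. Both fetuin genes are known to fall in the acute-phase response. Of 6 other negative acute-phase genes tested, 1 rose and 3 fell in Alc against Ctrl, with 1 rise and 0 falls after quantile normalization. Of 16 positive acute-phase genes, 1 rose, 1 fell and 14 did not pass. Of 16 other liver-secreted hormones and carriers tested, 2 rose and 1 fell. Hamp, which encodes the iron hormone hepcidin, fell by 1.80 ± 0.48 (adjusted p = 0.011).

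Genes whose deviations from the group means were most like those of each hepatokine gene were ranked by Pearson r over the 15 mice, as a description. The ranking took the tested genes without predicted gene models, Riken clones, clone-numbered symbols and symbols that begin with a digit. For Fgf21 they were Inhbe (0.91), Hilpda (0.87) and Skil (0.82). For Inhbe they were Fgf21 (0.91), Skil (0.86) and Tmem263 (0.85), so that Skil stood in both lists. For Angptl4 they were Slc22a5 (0.95), Akap12 (0.91) and Dnajb4 (0.89), and for Angptl8 Mcmdc2 (0.90), Gimap9 (0.82) and Phf23 (0.82). For Gdf15 they were Actg1 (0.89), Xkr9 (0.87) and Slpi (0.87). Ahsg was most like Enho (0.84), Cbs (0.84) and Itih2 (0.83), and Fetub most like Il1rap (0.84), Mup10 (0.78) and Wfdc21 (0.72). Fst was most like Arl1 (0.78), Mttp (0.74) and Wrnip1 (0.73), and its leading r in this ranking was the lowest among those of the 8 genes. These values share their libraries and are the top of the genes ranked, and a gene left out of the ranking may have a higher r.

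Measures of another kind moved with the contrast to Ctrl, in which Fgf21, Fst and Angptl8 changed. Of 19 circadian clock genes tested, 13 rose and 4 fell in Alc against Ctrl, and also in Alc UA against Ctrl. Arntl, which encodes the clock activator BMAL1, was 9.74 ± 1.79 FPKM in Ctrl against 1.21 ± 0.194 in Alc (log2 fold change -2.27 ± 0.12, limma adjusted p = 2.8e-08). The 6 erythroid markers summed to between 1431 and 8801 FPKM in Ctrl libraries, 576 and 988 in Alc and 346 and 1033 in Alc UA. None of the erythroid markers was at 0 in all libraries, and 0 of 5 tested rose and 5 fell in Alc against Ctrl. Of 3 B and plasma cell markers tested, 3 fell in both alcohol groups against Ctrl, and their sums were 5.93 to 17.6 FPKM in Ctrl, 1.39 to 5.84 in Alc and 2.16 to 11.2 in Alc UA. Of 2 T and NK cell markers tested, 2 fell in Alc and 1 in Alc UA, or 0 in Alc UA under median-of-ratios scaling or quantile normalization. Their sums were 3.61 to 35.0 FPKM in Ctrl, 2.48 to 8.23 in Alc and 2.55 to 8.4 in Alc UA. Of 7 hepatocyte markers 2 fell in each alcohol group, or 0 in Alc and 1 in Alc UA under median-of-ratios scaling, and their sums overlapped between groups. Among cholangiocyte markers 1 of 4 fell in each alcohol group, and among neutrophil markers 1 of 2 fell in Alc and 0 in Alc UA. Of 7 Kupffer cell and macrophage markers 0 passed in Alc and 1 rose in Alc UA, and all 7 were positive in both. In Alc UA 3 of them rose under median-of-ratios scaling or quantile normalization. For stellate cells 0 of 7 markers and for adipocytes 0 of 1 passed in either group. No marker of these lists was at 0 in all libraries. The part of the clock and of these cell types in the results for the hepatokine genes was not tested.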

How the data were processed

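RNA sequencing of liver was given by the authors as 1 table of FPKM values per gene and mouse, and the FPKM values were used as deposited. The submitters' processing notes list StringTie, DESeq, RSEM 1.2.8, HISAT2 2.1.0 and Bowtie2 2.2.5 without their roles. Genome build, annotation and strand setting have no entry in the sources used here. FPKM values hold no read depth, so counting error is unknown, and a count model was not run. Columns were matched to mice by the letter and number in each column name, read against the group and replicate in the sample titles. The titles do not print the column names. The table's 18510 rows include 25 symbols that read as dates and 223 genes at 0 in every library.

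Genes at 1 FPKM or more in at least 5 of 15 libraries were tested (10959). The fit of log2(FPKM + 1) used R 4.3.3 and limma 3.58.1, with the 3 groups in 1 model and a mean trend in the variance prior, and p-values were adjusted by Benjamini-Hochberg over all tested genes, with a threshold of 0.05. The procedure was tested on simulated data. Log2 ratios within libraries were compared by exact two-sided permutation tests, and correlations by 100000 permutations within groups (Python 3.11.15, numpy 2.4.6, scipy 1.17.1, matplotlib 3.10.9). The members and gene lists were chosen with earlier results of these data known. The rule for named genes took all 8 members, up to 4 genes of each list with the smallest adjusted p among those past the threshold in Alc against Ctrl and up to 2 in each other comparison, the 3 genes most alike to each member, and Insr, Klb, Fgfr4, Lpl, Inhbc, Ppara, Atf4, Mlxipl and Cdkn1a whatever their p. Only some of these are described, and 1 gene that the rule names is not reported here. Alternatives were the pseudocount, the filter, 3 other scalings (quantile normalization, median-of-ratios size factors, equal sums), other variance settings, a block for mouse number, each mouse left out in turn, and both Ctrl 1 and Ctrl 5 left out. The Fgf21 to Inhbe ratio and leaving out mice for correlations were added after seeing the data. Mouse numbers were treated as names only.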

Additional observations from a re-analysis of the deposited data

How the results depend on the processing

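Fgf21 and Fst kept direction and call in Alc against Ctrl under all 28 alternatives, and the correlation of Fgf21 with Inhbe kept its call under all of its own. In that comparison 3654 genes were called, 5870 with library weights. In Alc UA against Alc, where 1 gene was called, 2 were called with equal sums, 3 with library weights, 0 with the 2 groups alone, 2 without Ctrl 1 and Ctrl 5, and 1 to 5 with single mice left out. Of the hepatokine genes, 1 was called in Alc UA against Ctrl. That count was 2 with median-of-ratios size factors, 4 with library weights, 2 with the 2 groups alone, 3 without Ctrl 1 and Ctrl 5, and 0 to 3 with single mice left out. The pairs past the correlation threshold numbered 1 to 2 with single mice left out. The cause was not tested in any of these cases.

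Some differences that passed no test changed sign. Ahsg in Alc UA against Alc was 0.0016 with median-of-ratios size factors. Fetub in that comparison was 0.014 after quantile normalization and 0.019 under median-of-ratios scaling, and -0.13 to 0.018 with single mice left out. Angptl4 in Alc UA against Ctrl was 0.023 after quantile normalization, 0.16 under median-of-ratios scaling and 0.0038 with equal sums, and -0.22 to 0.12 with single mice left out. The Ahsg to Fetub ratio in Alc UA against Alc ran from -0.080 to 0.032.

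Mice with the same number did not deviate together: their correlations ran from -0.30 to 0.24 in Alc against Ctrl, where 1 of 5 matched its own number best, from -0.11 to 0.18 in Alc UA against Alc (0 of 5) and from -0.22 to 0.29 in Alc UA against Ctrl (1 of 5). With the replicate block 3554, 0 and 4534 genes were called in these comparisons, and 2, 0 and 3 of the hepatokine genes.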
